A study of Mus musculus with 6 samples.

Results

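The Dlk1-Dio3 domain of mouse chromosome 12 holds one of the largest clusters of microRNAs in the mammalian genome. Its microRNAs were examined in small RNA libraries of melan-alpha, a mouse cell line that goes on dividing in culture and is derived from melanocytes, the pigment cells of the skin. A set of 51 microRNA names of the domain was taken, and every table row with the mouse prefix and one of these names was kept, whatever its arm, its end variant or its level. This gave 28 of the 1560 rows, from 23 of the 51 names. The other 28 names had no row with a mouse name.

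The study compared 3 control libraries of melan-alpha cells with 3 MITF overexpression libraries, from melan-alpha cells infected with a lentivirus that carries the mouse Mitf gene. Both groups grew in RPMI with 10% fetal bovine serum. The labels name extracellular vesicles as the source of all 6 samples, while their extraction protocol speaks of collected and washed cells, and neither the treatment of the control cells nor the isolation of vesicles is stated. Nothing says that the 3 samples of a group were separate cultures, so a p-value here covers the spread among these libraries alone, which may be technical. MITF, a transcription factor of the melanocyte lineage, switches on genes for pigment, and its mRNA is not measured in small RNA libraries, so the table cannot check the labels by that gene.

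In the Dlk1-Dio3 domain, the genes for the proteins DLK1, RTL1 and DIO3 are active on the chromosome inherited from the father. The non-coding RNAs Meg3, Rian and Mirg, together with the microRNAs, come from the chromosome inherited from the mother and are thought to be cut from long transcripts on one strand. The microRNAs are abundant in embryo, placenta and brain and are low in most adult tissues, and in human melanoma the homologous cluster has been described as silenced relative to melanocytes. A microRNA binds its target mRNAs mainly through its seed, bases 2 to 8 from its 5′ end.

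The mature sequences of the 6 microRNAs whose rows rose in MITF overexpression are shown first. They are the RefSeq mature sequences on GRCm38.p6, 5′ to 3′, with the seed in capitals. The counted rows of miR-369-3p and miR-409-3p are identical to them. The row of miR-127-3p lacks the last 2 bases, those of miR-136-3p and miR-495-3p lack the last 1, and that of miR-494-3p is 1 base longer. All 6 lie on the plus strand, and no 2 of them share a seed.
miR-369-3p (chr12:109743466-109743486): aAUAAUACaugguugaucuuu
miR-127-3p (chr12:109592888-109592909): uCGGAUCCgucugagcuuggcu
miR-494-3p (chr12:109715367-109715388): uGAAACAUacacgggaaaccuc
miR-136-3p (chr12:109595366-109595387): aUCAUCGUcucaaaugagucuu
miR-495-3p (chr12:109718795-109718816): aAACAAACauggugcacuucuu
miR-409-3p (chr12:109743204-109743225): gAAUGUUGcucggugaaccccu

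On GRCm38, 49 of the 51 members had a RefSeq precursor, and these spanned 180 kb of chromosome 12, with 48 on the plus strand and miR-299b alone on the minus strand. The cluster falls into 3 stretches. The first, with 11 precursors over 31.7 kb, runs from within Meg3 across the antisense strand of Rtl1, where miR-431, miR-433, miR-127 and miR-136 lie opposite the Rtl1 exon. The second, with 3 precursors over 70.8 kb, holds miR-370 in an intron of Rian. The third, from miR-379 to miR-410, packs 35 precursors into 34.7 kb. In this last stretch miR-410, miR-377 and miR-485 lie in exons of Mirg, miR-369 and miR-382 partly in one, and miR-409 and miR-496a in its introns. The precursors of miR-493, miR-379, miR-411, miR-299a, miR-323, miR-494, miR-543, miR-495, miR-300, miR-381 and miR-487b lie between annotated genes.

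Tabulated reads per library ran from 342941 to 475977 in the controls and from 279142 to 448969 in MITF overexpression, of 5696499 to 10140819 reads called valid. The single most abundant row held 8.02% to 20.7% of a library's reads. More rows of the table were above 0 in MITF overexpression, with 783 to 992, than in the controls, with 513 to 677. Every member value above 0 was at least 5 reads, and of the values above 0 in all rows 3.61% were lower than 5, so a listed 0 can hide a few reads. Levels below are CPM, reads set to one common library size with TMM factors. CPM is a share of the RNA sequenced, so more of a microRNA per vesicle, more vesicles that carry it and less of other RNA cannot be told apart, nor can fewer cells of a type and less RNA per cell.

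The cluster as a whole stood higher in MITF overexpression. Member reads summed to 3384, 4635 and 4453 CPM in the 3 controls and to 10468, 9101 and 9393 CPM in the 3 MITF overexpression libraries. The groups did not overlap, and the MITF overexpression libraries lay within a narrow band. The mean was 4157 ± 676 CPM (SD, n = 3) in the controls and 9654 ± 720.1 CPM (SD, n = 3) in MITF overexpression, a ratio of 2.32, for which no test was made because the members were chosen with results known. As a share of all tabulated reads, the members took 0.394% ± 0.0835 in the controls and 1.01% ± 0.0451 in MITF overexpression (SD, n = 3 each). miR-369-3p alone gave 58.9% of the 15260 member reads of all libraries and miR-127-3p gave 21.6%. Without these 2 rows the sum was 706, 886 and 781 CPM in the controls and 2199, 1652 and 1839 CPM in MITF overexpression, a ratio of 2.40, so the gap between the groups was also there in the less abundant members.

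**Figure D1:**
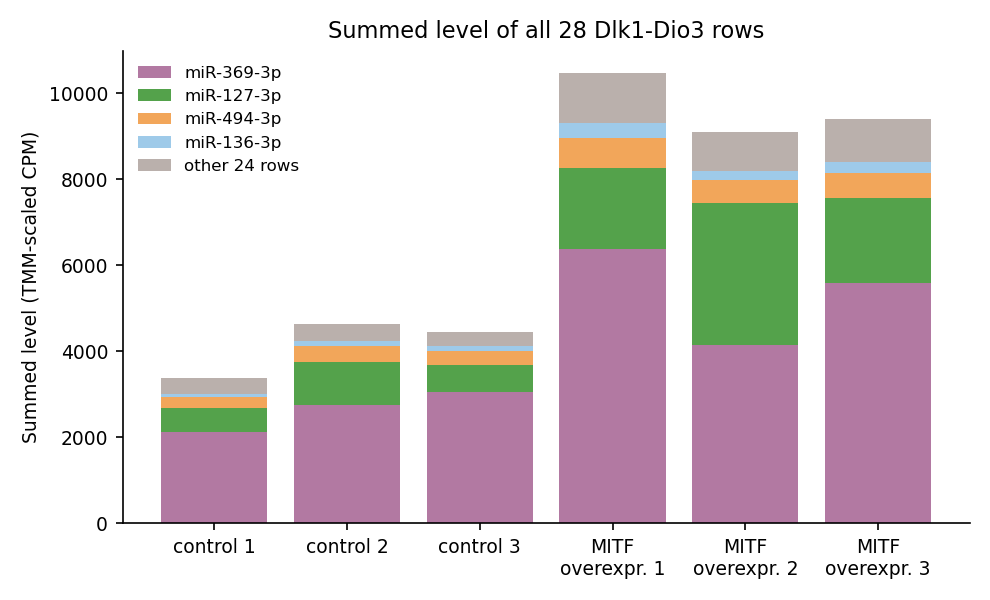
Summed level of the 28 member rows in each of the 6 libraries, in CPM, stacked from miR-369-3p, miR-127-3p, miR-494-3p, miR-136-3p and the other 24 rows. The 3 control bars reach 3384 to 4635 CPM and the 3 MITF overexpression bars 9101 to 10468 CPM.

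Row by row, 14 of the 28 member rows had enough reads to be tested and 14 did not. Of the 14, 6 rose in MITF overexpression and 0 fell (edgeR quasi-likelihood test, Benjamini-Hochberg adjusted p under 0.05 over all 441 tested rows). Of all tested rows, 9.98% rose and 5.22% fell. All 9 member rows at an unadjusted p under 0.05 by edgeR had the higher mean in MITF overexpression. Over the whole table, 152 of the 441 tested rows had such a p. DESeq2 also called 0 member rows lower, and in the whole table it called 67 rows higher and 43 lower. In 9 of the 14 rows every MITF overexpression library lay above every control library, against 25.2% of all tested rows. Both arms of miR-409 are in each of these sets of 9, and miR-409-3p is among the 6. These rows had enough reads for the test only in MITF overexpression. Their part in these counts, and in the median that follows, is thus no independent support. The median log2 fold change of the 14 tested rows was 1.31, beside 0.08 over all 441. The count of 6 fell when any 1 library was left out, by an amount that differed with the library. It was 3 without control 1, 1 without control 2 and 3 without control 3. It was 4 without MITF overexpression 1, 2 without MITF overexpression 2 and 0 without MITF overexpression 3. Whether this comes from fewer libraries or from single libraries was not tested. In that last fit no row of the whole table was called, with a lowest adjusted p of 0.0690 by edgeR, while 8 member rows and 135 rows of the table had an unadjusted p under 0.05.

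miR-369-3p, the most abundant member and reported in human cells to act at AU-rich elements of mRNAs, was at 2132, 2742 and 3055 CPM in the controls and at 6371, 4152 and 5593 CPM in MITF overexpression. All 3 MITF overexpression libraries stood above all controls, the second by the smallest margin. Its log2 fold change was 1.02 ± 0.24 (SE), with an adjusted p of 0.0221 in edgeR. The adjusted p was 0.0626 without control 1, 0.0802 without control 2 and 0.0899 without MITF overexpression 3.

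miR-127-3p, which is complementary to the Rtl1 transcript and helps to cut it, was at 546, 1006 and 616 CPM in the controls and at 1897, 3297 and 1962 CPM in MITF overexpression. The second library was the highest of its group in both conditions, and the groups did not overlap. It rose by a log2 fold change of 1.72 ± 0.31 (SE; adjusted p = 0.0200, edgeR). Without MITF overexpression 3 the adjusted p was 0.0690. miR-136-3p comes from the same antisense strand of Rtl1 and was measured at 68.7, 117 and 119.7 CPM in the controls and at 349.8, 200.1 and 254 CPM in MITF overexpression. Its lowest MITF overexpression library was well above its highest control. The log2 fold change was 1.39 ± 0.36 (SE; adjusted p = 0.0303, edgeR), and the adjusted p lay between 0.0510 and 0.106 when any 1 library was left out.

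miR-494-3p showed the smallest of the 6 changes. It was at 262, 368 and 332 CPM in the controls and at 690.4, 536 and 599 CPM in MITF overexpression. Values were tight within each group and apart between them. The log2 fold change was 0.92 ± 0.25 (SE; adjusted p = 0.0319, edgeR), and without any 1 library the adjusted p lay between 0.0560 and 0.0978. Without a filter on low counts it was 0.0849. miR-495-3p, from the same miR-379 to miR-410 stretch, was at 52.3, 44.3 and 24.8 CPM in the controls and at 105, 173 and 143 CPM in MITF overexpression. Every MITF overexpression library held at least 46 reads of it and every control at most 17. It rose by a log2 fold change of 1.80 ± 0.47 (SE; adjusted p = 0.0303, edgeR). Its adjusted p was 0.0804 without control 2, 0.0747 without control 3, 0.0781 without MITF overexpression 2, 0.0926 without MITF overexpression 3 and 0.0614 without a filter on low counts.

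Both arms of the miR-409 hairpin stood higher in MITF overexpression, and only the 3p arm passed the test. Both rows met the filter on low counts, which is scaled to depth, through the MITF overexpression libraries alone. They could thus be tested only because they were high there. miR-409-3p had 6, 0 and 0 reads in the controls and 43, 43 and 38 reads in MITF overexpression. That is 19.6 CPM in the first control and 98.3, 146 and 111 CPM in the MITF overexpression libraries. The fitted log2 fold change was 4.28 ± 1.05 (SE; adjusted p = 0.0236, edgeR), a size that depends on how the 2 listed zeros are treated and is no bound. With the listed zeros set to 4 reads it was 3.19, and without control 1, which leaves both remaining controls at 0, it was 8.47. The adjusted p was 0.0804 without control 2, 0.0962 without MITF overexpression 2 and 0.0978 without MITF overexpression 3. miR-409-5p had 0, 10 and 11 reads in the controls and 54, 35 and 20 reads in MITF overexpression, which is 26.1 and 24.8 CPM in the last 2 controls and 123, 119 and 58.5 CPM in MITF overexpression. The groups did not overlap, but the difference did not pass the threshold (log2 fold change 2.49 ± 0.85 SE, adjusted p = 0.0690, edgeR).

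**Figure D2:**
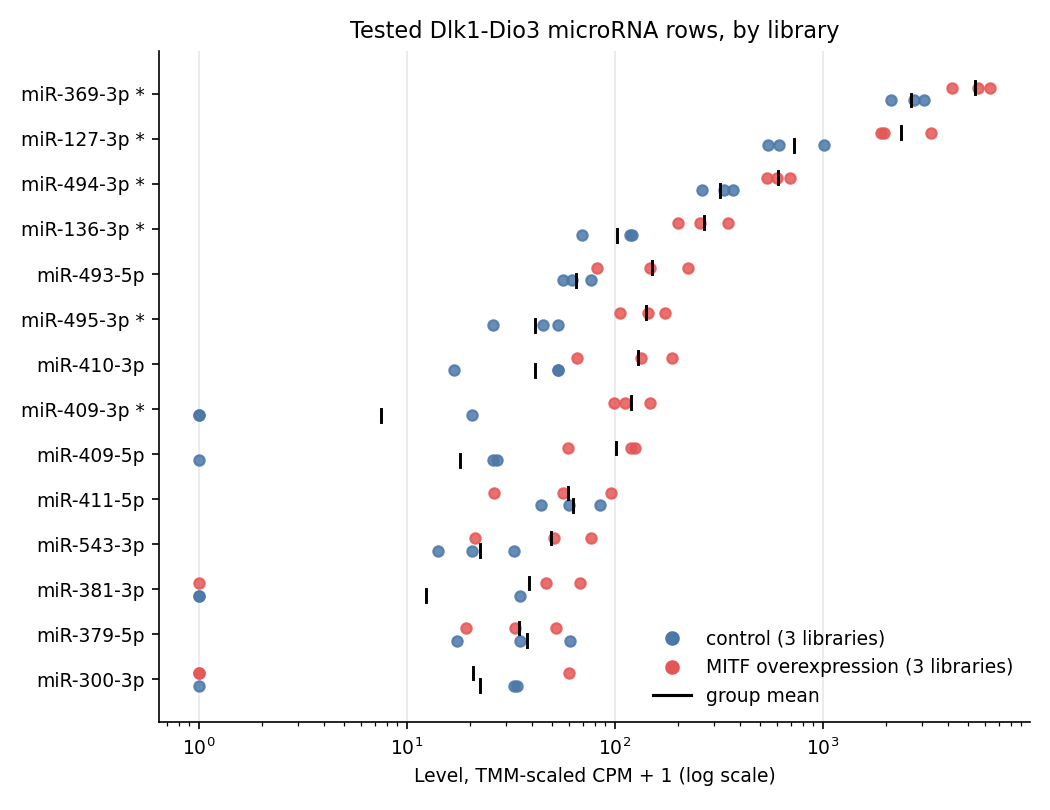
Level of each tested member row in each library, as CPM + 1 on a log axis, with control libraries in blue, MITF overexpression libraries in red and group means as black ticks. Rows marked with an asterisk are the 6 that passed the test. miR-369-3p and miR-127-3p lie far above the rest, and miR-409-3p shows 2 controls listed at 0.

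Another pair of rows had groups that did not overlap and missed the threshold. miR-493-5p was at 55.6, 75.6 and 61.0 CPM in the controls and at 224, 81.4 and 146 CPM in MITF overexpression (log2 fold change 1.23 ± 0.46 SE, adjusted p = 0.0882, edgeR). Its second MITF overexpression library was only just above the highest control. miR-410-3p, from the last precursor of the cluster, was at 52.3, 52.1 and 15.8 CPM in the controls and at 133, 64.4 and 187 CPM in MITF overexpression (log2 fold change 1.69 ± 0.60 SE, adjusted p = 0.0770, edgeR).

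The remaining 5 tested rows overlapped between the groups and were low. miR-543-3p averaged 21.4 ± 9.42 CPM in the controls and 48.5 ± 27.6 CPM in MITF overexpression (SD, n = 3 each), with a log2 fold change of 1.17 ± 0.83 (SE) and an adjusted p of 0.361 in edgeR. miR-411-5p averaged 61.7 ± 20.4 and 58.6 ± 35 CPM, and miR-379-5p 36.7 ± 21.9 and 33.8 ± 16.4 CPM (SD, n = 3 each). These are the first precursors of the miR-379 to miR-410 stretch, and in mouse liver miR-379 has been tied to lipid metabolism. Their log2 fold changes were -0.09 ± 0.62 and -0.14 ± 0.84 (SE), with adjusted p of 0.940 and 0.932 in edgeR, and both turned positive with total-count scaling (0.080 and 0.0065). With errors of this size a change like that of miR-369-3p was not detectable in either row. miR-381-3p had 0, 13 and 0 reads in the controls and 20, 0 and 23 reads in MITF overexpression (log2 fold change 1.71 ± 1.59 SE, adjusted p = 0.501, edgeR). miR-300-3p had 10, 0 and 14 reads in the controls and 26, 0 and 0 reads in MITF overexpression (log2 fold change -0.05 ± 1.65 SE, adjusted p = 0.989, edgeR), and its sign also turned with total-count scaling (0.071).

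Some members are close in sequence. miR-495-3p and miR-543-3p differ at 4 of 22 bases (A6U, A7U, A9G and U10C, the base of miR-495-3p first, positions counted from 1 at the 5′ end), and of these only miR-495-3p passed the test. Whether the 2 differ in their change was not tested.
miR-495-3p: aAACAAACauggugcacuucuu
miR-543-3p: aAACAUUCgcggugcacuucuu
Another close pair, miR-381-3p and miR-300-3p, differs by A4G, G21U and U22C, counted in the same way. Both were read in some libraries and not in others. Of the 325 pairs of RefSeq mature sequences compared, only miR-411-3p and miR-379-3p were closer, with C10U and C22U outside a common seed, and each of these was seen at 5 reads in 1 library. No member row shared its exact sequence with another row of the table, so the counting did not split reads between identical rows, although near-identical members may still exchange reads through sequencing errors.

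By position, rows that rose were found in both stretches with tested rows. In the stretch at Meg3 and antisense to Rtl1, 2 of 3 tested rows rose, with a median log2 fold change of 1.39. From miR-379 to miR-410, 4 of 11 rose, with a median of 1.17. Both miR-409 rows are in this stretch, and miR-409-3p is among the 4. They could be tested only because they were high in MITF overexpression, so their part here is no independent support. Summed over all rows, the stretch at Meg3 and Rtl1 was at 907 ± 269.6 CPM in the controls and at 2821 ± 683 CPM in MITF overexpression. The stretch from miR-379 to miR-410 was at 3250 ± 502 and 6830 ± 1246 CPM (SD, n = 3 each). The ratios were 3.11 and 2.10. The share of member reads from the Meg3 and Rtl1 stretch was 20.7%, 26.2% and 18.2% in the controls and 23.8%, 39.6% and 25.1% in MITF overexpression, which overlap, so the balance between the stretches did not separate the groups. The high share in MITF overexpression 2 is that of miR-127-3p, which made up 36.2% of its member reads against 13.8% to 21.7% in the other 5 libraries. The stretch around Rian gave a single row, miR-370-3p, with 5 reads in 1 MITF overexpression library.

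**Figure D3:**
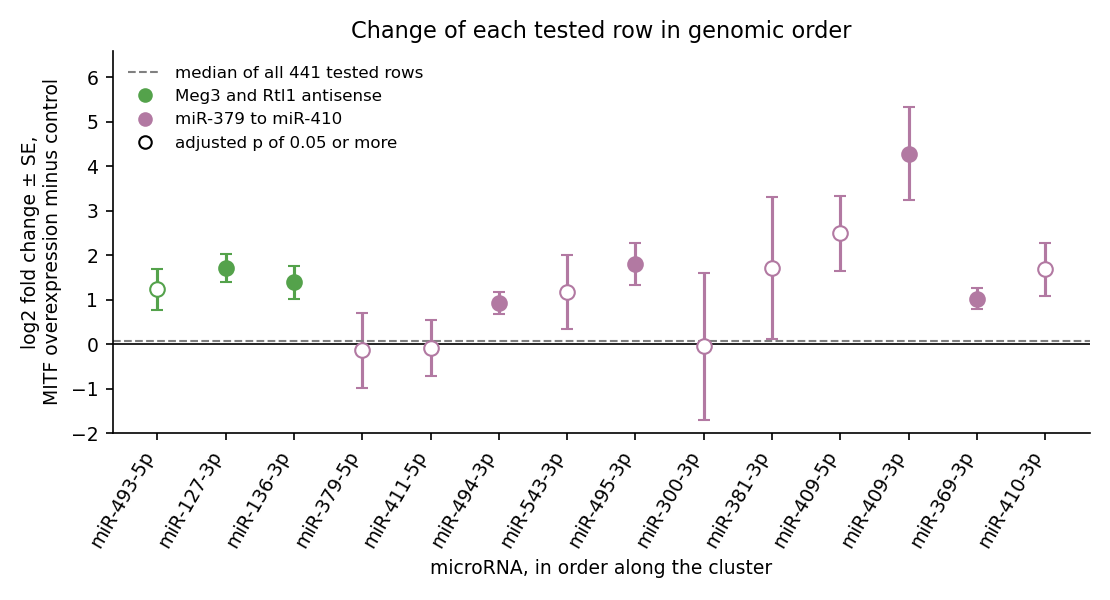
Log2 fold change (MITF overexpression over control) of the 14 tested member rows in their order along chromosome 12, with bars of 1 standard error. Filled circles passed the test, open circles had an adjusted p of 0.05 or more, and the dashed line is the median of all 441 tested rows at 0.08. In the miR-379 to miR-410 stretch, miR-379-5p and miR-411-5p near its start and miR-300-3p further along lie near the line. Their standard errors are wide, at 0.84, 0.62 and 1.65.

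The 14 untested rows were at the edge of detection, with 5 to 58 reads over all 6 libraries. Together they summed to 68.7, 13.0 and 63.2 CPM in the controls and to 251, 166 and 134 CPM in MITF overexpression. Among the member rows, miR-299a-3p alone was seen in every library of one group and in none of the other, with 5 reads in each MITF overexpression library. miR-487b-3p had 0, 0 and 5 reads in the controls and 11, 19 and 12 reads in MITF overexpression. miR-382-5p reached 46 reads in MITF overexpression 1 and had 7, 5 or 0 reads elsewhere. Of all 28 rows, 10 were above 0 in all 6 libraries, 7 in some MITF overexpression library and no control, and 2 in some control and no MITF overexpression library. In the whole table those last 2 numbers were 728 and 137.

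In the controls 14, 13 and 16 of the 51 members were detected with at least 1 read, and in MITF overexpression 20, 17 and 16. These counts overlap, and the number of rows above 0 in the whole table was also higher in MITF overexpression, as given above. At a minimum of 10 reads the counts were 10, 11 and 11 in the controls and 15, 11 and 15 in MITF overexpression. The members with no mouse-named row were miR-134, miR-154, miR-299b, miR-329, miR-337, miR-341, miR-376a, miR-376b, miR-376c, miR-380, miR-412, miR-434, miR-539, miR-540, miR-541, miR-544, miR-654, miR-665, miR-666, miR-667, miR-668, miR-673, miR-679, miR-758, miR-770, miR-882, miR-1193 and miR-1197. miR-134, which restrains the growth of dendritic spines in neurons, and the miR-376 family were among them. Of 9 further microRNAs of the domain that are not members, 0 had a mouse-named row.

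Most of what was read of the cluster was the 3p arm. Rows of the 3p arm numbered 21 with 14607 reads, or 95.7% of the member reads, and rows of the 5p arm numbered 7 with 653 reads. A total of 5 members had rows of both arms, and they differed among themselves. miR-369 was read almost wholly from its 3p arm, with 8981 reads against 5. miR-379 and miR-411 went the other way, with 6.10% and 3.79% of their reads from the 3p arm. miR-409 had 130 reads of each arm over all libraries. Its 3p share was 100%, 0% and 0% in the controls, on few reads, and 44.3%, 55.1% and 65.5% in MITF overexpression. miR-382 had 40 reads of its 3p and 58 of its 5p arm, 46 of the latter in MITF overexpression 1.

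All 28 rows matched the precursor of their own mouse gene exactly, and 26 had a RefSeq mature sequence to compare with. Of these, 10 were identical to it, and 24 had the same 5′ end and so the same seed. At the 3′ end 13 rows were shorter and 2 longer, as with miR-127-3p, whose row lacks the last 2 bases, and miR-493-5p, whose row is 3 bases longer. The row of miR-411-5p begins 1 base and that of miR-382-3p begins 2 bases before the RefSeq start, which shifts the seed. Row lengths were 20 to 23 bases, so levels were not divided by length.

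In the authors' deposited table the same 6 rows had an unadjusted p under 0.05. The authors' fold change there was 2.09 for miR-369-3p (p = 0.0425), 3.37 for miR-127-3p (p = 0.0449) and 18.3 for miR-409-3p (p = 0.00506). That table also gave an unadjusted p of 0.0310 to miR-409-5p and of 0.0127 to miR-299a-3p.

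A further 14 rows carry the name of another mammal together with a member name, and 3 of them are named after miR-493, which also has a mouse-named row. Their sum was 1100.1, 1056 and 1227 CPM in the controls and 2587, 2030.1 and 2906 CPM in MITF overexpression, a ratio of 2.22 without overlap. In 5 of the 14 the precursor of the named member was the nearest mouse precursor, and these rows gave 1056, 1043 and 1187.8 CPM in the controls and 2487, 1876 and 2805 CPM in MITF overexpression. In the other 9 it was the precursor of another gene. Of these, miR-544-5p had no RefSeq precursor of its own name to compare with. The 3 rows named after miR-493 were 5 mismatches from the miR-493 precursor and 4 from the nearest. Those named after miR-541 were 3 to 7 mismatches from the miR-541 precursor and 1 to 6 from the nearest. Of the 3 rows that could be tested, 2 rose. The cow-named miR-380-3p was at 999 ± 83.7 CPM in the controls and at 2108 ± 530.5 CPM in MITF overexpression (SD, n = 3 each; log2 fold change 1.08 ± 0.24 SE, adjusted p = 0.0218, edgeR), and the guinea pig-named miR-412-5p had a log2 fold change of 1.45 ± 0.36 (SE; adjusted p = 0.0236, edgeR). The row of miR-380-3p differed from the mouse miR-380 precursor at 3 of 21 bases and that of miR-412-5p from the mouse miR-412 precursor at 1 of 20. The third tested row, miR-544-5p, was 6 mismatches from its nearest precursor, that of miR-7221 (adjusted p = 0.223, edgeR), and 0 of the 14 rows matched a mouse precursor exactly. The medium held bovine serum, and which species these reads came from was not tested, nor whether mouse-named members have the same sequence in cow. Cow-named rows as a whole summed to 24467 ± 8098 CPM in the controls and to 17297 ± 3599.7 CPM in MITF overexpression, with overlapping groups, and 8 of the 32 tested cow-named rows rose and 2 fell.

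Several marker lists, of melanocytes and of other cells, also stood higher in MITF overexpression. The melanocyte microRNAs of the marker list, miR-211 and miR-204, were present in the libraries and summed to 1976 to 2771 CPM in the controls and to 4565 to 5946 CPM in MITF overexpression, with 3 of 3 tested rows higher. miR-137, the third of that list, had no row. Blood cell microRNAs, among them the red cell microRNA miR-451a, summed to 1643 to 2563 CPM and 4806 to 8749 CPM, and 4 of 7 tested rows rose. miR-486a of that list had no row. Liver and serum microRNAs, mostly miR-122, summed to 9872 to 17489 CPM and 24079 to 107717 CPM, and 1 of 3 rose. Mesenchymal microRNAs summed to 5711 to 6529 CPM and 7093 to 10020.1 CPM, and 3 of 7 rose. Neural microRNAs summed to 2293 to 2970.2 CPM in the controls and 1405 to 1967 CPM in MITF overexpression, with 0 of 4 past the test in either direction by edgeR and 1 at an unadjusted p under 0.05. The 2 rows of the endothelial microRNA miR-126a overlapped between groups. They summed to 2233 to 2409 CPM in the controls and to 9080, 1825 and 2926 CPM in MITF overexpression, so the first library stood apart. The part of any of these cell types or sources in the rise of the cluster was not tested.

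Imprinted microRNAs outside the domain were represented mainly by miR-335-5p, which lies in the gene Mest. It was at 1386, 1504 and 1355 CPM in the controls and at 2716, 2507 and 2859 CPM in MITF overexpression. Like the cluster it was higher in all 3 MITF overexpression libraries, with a log2 fold change of 0.93 ± 0.19 (SE; adjusted p = 0.0211, edgeR), and it was the 1 tested row of that list. Of 9 names in the list, 2 had a row.

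**Figure D4:**
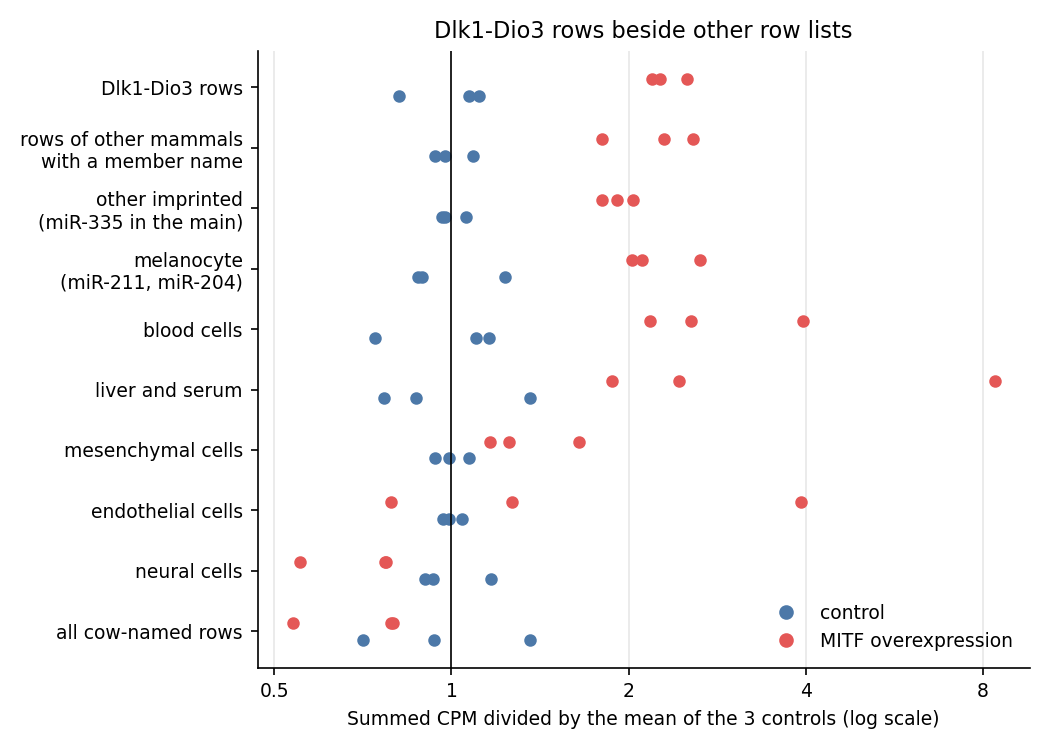
Summed level of the member rows, of the rows of other mammals with a member name, of other imprinted microRNAs, of the marker lists and of all cow-named rows in each library (control in blue, MITF overexpression in red), divided by the mean of the 3 controls, on a log axis. The member rows lie between 2.19 and 2.52 in MITF overexpression, and the neural list lies between 0.553 and 0.774. In MITF overexpression 1 the blood, liver and endothelial lists reach 3.95, 8.38 and 3.93.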

How the data were processed

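The authors deposited 1 table with estimated counts of reads per sequence for each of the 6 libraries, for sequences of 18 to 26 bases per the file headers. The same deposited table holds normalized values, a signal used here only for its scaling factors, and the authors' fold change and unadjusted p-value per row. A second deposited table gives the count of raw and valid reads per library. The build was mm9, per the submitters' processing notes, while aligner and counter were not given in the sources used here. No coordinates were converted: positions and sequences are from RefSeq on GRCm38.p6 and genes from a GRCm38 annotation. A total of 4 empty lines were not used here.

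Estimated counts were rounded to whole numbers, where the planned design had assumed counts. All rows were fitted with edgeR 4.0.16 in R 4.3.3 (TMM scaling, filterByExpr with a minimum count of 10, quasi-likelihood test, group as the only term), with Benjamini-Hochberg adjustment across all 441 tested rows and 0.05 as threshold. The code was tested on simulated data. CPM uses the TMM library sizes of the tested rows. Standard errors are the log2 fold change divided by the square root of the F statistic. Depth per library, 279142 to 475977 tabulated reads, sets the precision.

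The members and all lists were chosen with earlier results of these data known. Every tested member row is named with its values. A search for rows that follow the summed cluster across libraries was planned and is not reported, because the libraries fall into 2 separate groups. Alternatives were DESeq2 1.42.0, other scalings and filters, each library left out, and 3 chosen after seeing the data: the authors' factors, listed zeros set to 4 reads, and a minimum of 10 reads for detection.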

Additional observations from a re-analysis of the deposited data

Results flagged for a closer look

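miR-299a-3p had 5 reads in each of the 3 MITF overexpression libraries and was listed at 0 in each of the 3 controls. It drew attention because it was too low for the test and yet present in one group alone. The pattern is not particular to the cluster: miR-223-5p (6, 8 and 5 reads) and miR-142a-3p (36, 7 and 23 reads) also had 0 in every control. In the whole table of 1560 rows, 728 were above 0 in some MITF overexpression library and in no control. That is a looser pattern, which 7 member rows had, and 708 rows of the table were above 0 in only 1 library. How many rows of the whole table had the stricter pattern of miR-299a-3p was not counted. No member row held a value above 0 and under 5 reads in any library.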

How the results depend on the processing

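The count of 6 member rows higher stayed at 6 with RLE scaling, total-count scaling, TMM without the most abundant row, mouse-named rows only, the authors' factors and rows of one arm summed. It was 5 without a filter on low counts, where miR-494-3p and miR-495-3p were lost and miR-409-5p was gained, 7 with DESeq2 and 8 with listed zeros set to 4 reads. Leaving out 1 library gave 0 to 4. With the replicate number as a block it was 1, miR-127-3p, among 2 rows called in the whole table. Same-numbered libraries did not visibly deviate together (correlations of -0.05, 0.03 and -0.03). With 3 libraries a group this cannot settle whether the numbers pair the samples. Over the whole table the called rows were 44 higher and 23 lower, against 67 and 43 with DESeq2, 81 and 36 with listed zeros set to 4 reads, 62 and 15 with total-count scaling (80.5% higher, against 65.7%), 44 and 37 without the most abundant row in TMM, 26 and 23 over mouse-named rows, and 55 and 29 without a filter. Leaving out 1 library gave 0 to 41 higher and 0 to 23 lower. Total-count scaling moved the median of all rows by 0.16 on the log2 scale, and no filter by 1.89 through rows near 0.

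The summed ratio of 2.32 lay between 2.12 and 2.83 over the alternatives, the highest being that without the most abundant member row. Mean members detected per library went from 14.3 to 10.7 in the controls and from 17.7 to 13.7 in MITF overexpression at a minimum of 10 reads. Log2 fold changes near 0 changed sign. With total-count scaling miR-379-5p was at 0.0065, miR-411-5p at 0.080 and miR-300-3p at 0.071, and miR-300-3p was at 0.24 with listed zeros set to 4 reads. Leaving out 1 library gave -0.53 to 0.43 for miR-379-5p, -0.53 to 0.26 for miR-411-5p and -5.95 to 0.47 for miR-300-3p, the last through listed zeros. miR-409-5p passed the threshold without a filter, with DESeq2 and with listed zeros set to 4 reads, and miR-410-3p with the last. The cause of these shifts was not tested. With 3 libraries a group and fewer than 100 reads in most member rows, smaller changes were not detectable.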
